A study of Mus musculus with 4 samples.

Results

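Memory-like CD4 T cells were 1021 of 32603 cell barcodes in the expression libraries of peritoneal immune cells, 437 of 10087 in the wild-type (WT) library and 584 of 22516 in the knockout (KO) library. A barcode was a member when it had at least 200 genes, under 10% mitochondrial unique molecular identifiers (UMIs), at least 2 UMIs of the CD3 genes Cd3e, Cd3d and Cd3g together and at least 1 UMI of Cd4. It also had to have no UMI of Cd8a, Cd8b1 or Foxp3, at most 1 UMI of the naive-cell genes Lef1, Dapl1 and Igfbp4 together, at most 1 of the gamma-delta genes Cd163l1 and Trdc together, and at most 2 of the B-cell genes Cd79a, Cd79b and Ms4a1 together. The cells were CD45-positive cells sorted from peritoneal lavage fluid of WT or KO mice. All mice, the WT controls included, received a high-fat diet that began at 4 weeks of age and lasted 3 months. Each genotype gave 1 gene expression library and 1 B-cell receptor (BCR) library, the sources used here do not give the number of mice behind them, and no comparison between genotypes has a replicate. Levels are in CPM, a common scale that divides the summed UMIs of 1 gene by those of all genes in the same members. Intervals in parentheses are exact 95% intervals, or for ratios of shares 95% intervals on the log scale, and cover counting error only.

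CD4 T cells recognise peptides on MHC class II molecules and act mainly by secreting cytokines and by displaying ligands such as CD40L to other cells. After first activation they lose homing receptors of naive cells such as Ccr7 and take on chemokine receptors and adhesion molecules that admit them to tissues and body cavities. Helper subsets are usually told apart by transcription factors and cytokines, such as Tbx21 (T-bet) with interferon-gamma, Gata3 with interleukins 4, 5 and 13, and Bcl6 with interleukin 21. Type 17 cells are known for interleukins 17 and 22.

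The label was checked against 3 markers that the rule did not use. Cd28, the main costimulatory receptor, stood at 427 CPM in the WT and 388 CPM in the KO members. Icos, a costimulatory receptor gained on activation, stood at 218 and 245 CPM, and Cxcr6, a chemokine receptor of tissue-associated T cells, at 110 and 109 CPM. Because shares of barcodes with a UMI follow depth, each member was also reduced at random to 1500 UMIs, which left 433 WT and 493 KO members. At that depth a Cd28 UMI was found in 49.2% of WT and 43.0% of KO members (78.7% and 63.4% at full depth), against 0.147% and 0.243% of B cells. The share with an Icos UMI was 24.2% and 29.4% (53.8% and 42.3% at full depth), and B cells stood at 0.0491% and 0.121%. For Cxcr6 it was 9.93% and 13.6% (24.5% and 21.4% at full depth), against 0.0328% and 0.138% of B cells. Median depth at full depth was 4221 UMIs in WT and 2545.5 in KO members, and 6938 and 3444 in B cells. All 3 markers were thus found in members far more often than in B cells, and Cxcr6 marked only a minority of members. None of the 3 was confined to members among T cells. Cd28 and Icos were higher in members than in CD4 T cells with 2 or more naive-gene UMIs. The factors in WT and KO were 1.32 and 1.55 for Cd28 and 1.93 and 1.92 for Icos. Against memory-like CD8 T cells they were 1.37 and 1.47 for Cd28 and 2.21 and 2.51 for Icos. A Cxcr6 UMI was found at 1500 UMIs in 3.8% of WT and 11.2% of KO CD4 T cells with 2 or more naive-gene UMIs and in 12.4% and 8.76% of memory-like CD8 T cells. Gamma-delta-like T cells had more Cxcr6 (905 and 1183 CPM) and more Icos (259 and 449 CPM) than members.

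The values that chose the members are a description and no finding. The median member had 11 CD3 UMIs in WT and 7 in KO, and 2 and 1 Cd4 UMIs. A single Cd4 UMI carried 215 of 437 WT and 417 of 584 KO members across the threshold, whereas 438 WT and 1365 KO barcodes met every other condition with no Cd4 UMI. Just inside the naive-gene limit, at 1 UMI, stood 156 WT and 159 KO members, and just outside it, at 2 UMIs, 77 and 47 barcodes. Just inside the B-cell limit, at 2 UMIs, stood 6 and 41 members, and just outside it, at 3 UMIs, 2 and 13 barcodes. CD3 stood at exactly 2 UMIs in 6 and 62 members, and 7 and 22 barcodes missed only that condition by 1 UMI. Barcodes that missed only the Cd8a and Cd8b1 condition by 1 UMI numbered 12 and 16, and those that missed only the Foxp3 condition by 1 UMI numbered 9 and 7. KO members therefore lay closer to the CD3, Cd4 and B-cell thresholds than WT members did.

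The KO library was shallower and carried more transcripts of other cells. Members held 2045809 UMIs in all in WT and 1727929 in KO, with a median of 1777 and 1234 genes per barcode and 1.36% and 1.53% mitochondrial UMIs. The barcode sequences of 293 barcodes occurred in both libraries, among them 8 WT and 7 KO members, and none of these was a member in both. A BCR contig was assembled for 3 WT members, 0.686% (0.142 to 1.99), and for 8 KO members, 1.37% (0.593 to 2.68), against 81.5% and 78.5% of B cells. A set of 15 WT and 31 KO members held at least 50 UMIs of the MHC class II genes Cd74, H2-Aa, H2-Ab1 and H2-Eb1 or at least 3 UMIs of the myeloid genes Lyz2, C1qa, Adgre1, Csf1r and Cd209a. These members with antigen-presenting-cell transcripts were 3.43% and 5.31% of all, with a median of 12476 and 7083 UMIs, and results are given with and without them where they differ. Of the 18 macrophage genes examined, Alox15, Prg4 and Saa3 were at 0 in WT members and Fcgr1 in KO members, and the list summed to 1110 and 2255 CPM. Among the 20 B-cell genes, Jchain was at 0 in both, and the list summed to 7567 and 11282 CPM. Most of that sum came from MHC class II genes, which other antigen-presenting cells share. Cd74 stood at 3977 and 5832 CPM, H2-Aa at 1309 and 1998 CPM and H2-Eb1 at 1076 and 1563 CPM. Without the members just described the list summed to 431 and 1471 CPM, but these genes helped define those members, so a fall was built in. Cd79a, which the rule limited, was found in 3.0% and 11.2% of members at 1500 UMIs, and Cd74 in 20.8% and 59.4%. The part of these transcripts in the differences between libraries below was not tested, except where values without the members that held most of them are given.

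Members made up a smaller share of the KO library than of the WT library. They were 4.36% (3.97 to 4.78) of 10018 kept WT barcodes and 2.62% (2.41 to 2.83) of 22327 kept KO barcodes, a KO to WT ratio of 0.600 (0.531 to 0.677). When every barcode was first reduced to 1500 UMIs and the rule applied afterwards, 283 of 9602 WT barcodes (2.95%) and 323 of 18935 KO barcodes (1.71%) were members, a ratio of 0.579 (0.494 to 0.678). With reduction to 1000 UMIs the ratio was nearer 1, at 0.694 (0.578 to 0.835). Among CD3-positive barcodes members were 15.5% in WT and 10.3% in KO, a ratio of 0.667 (0.594 to 0.748). At equal depth that ratio was 0.642 (0.553 to 0.745) with 1500 UMIs and 0.772 (0.648 to 0.919) with 1000 UMIs. Many CD3-positive barcodes exceeded the B-cell limit, and among those that met it the shares were 23.5% and 18.3%, a ratio of 0.781 (0.699 to 0.871). The share was lower in the KO library with each of these denominators, and the distance from WT was smallest with the last one.

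The neighbouring T-cell populations had other ratios. CD4 T cells with 2 or more naive-gene UMIs, called naive-like here, were 263 WT and 102 KO barcodes, 9.33% and 1.81% of CD3-positive barcodes, a ratio of 0.194 (0.155 to 0.242), or 0.346 (0.209 to 0.573) at equal depth. Memory-like CD8 T cells, chosen by the same limits with Cd8a or Cd8b1 and without Cd4, were 183 and 411 barcodes, 6.49% and 7.27%, a ratio of 1.12 (0.947 to 1.33), or 0.953 (0.810 to 1.12) at equal depth. Foxp3-positive CD4 T cells numbered only 21 and 17. Within the CD4 T cells members were 62.4% in WT and 85.1% in KO at full depth, and 87.9% (83.8 to 91.2) and 93.1% (89.9 to 95.5) at equal depth. The gap between the libraries was smaller at equal depth, where both member shares were higher. Only 39 WT and 24 KO barcodes still reached 2 naive-gene UMIs at that depth. How much of the smaller gap comes from this fixed limit was not tested. With 1 library per genotype, a difference between mice and a difference between library preparations cannot be told apart.

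Within each library, members were set against naive-like CD4 T cells. The naive-gene limit separates these 2 groups, so the comparison is a description. Of the genes at a mean of at least 20 CPM, 500 of 5674 (8.81%) in WT and 700 of 5699 (12.3%) in KO were at least 1.5-fold higher in members, and 130 (2.29%) and 313 (5.49%) at least 1.5-fold lower. Genes at a mean of at least 50 CPM were ranked by the smaller of their ratios in the 2 libraries. First by that order was Bhlhe40, a transcription factor of activated T cells, at 400 against 141 CPM in WT and 298 against 105 CPM in KO. Cxcr3, a chemokine receptor of type 1 cells, stood at 330 against 133 CPM and 280 against 109 CPM. Both genes were higher by a similar factor in each library, 2.85 and 2.84 for Bhlhe40 and 2.47 and 2.55 for Cxcr3. Tbx21, which drives Cxcr3 and interferon-gamma, was higher by 2.05 and 1.98, the adhesion receptor gene Cd44 by 1.93 and 2.02, the calcium-binding protein gene S100a4 by 2.24 and 1.97, and Icos by 1.93 and 1.92. The other genes among the 10 highest were Serpina3g, Tnfrsf4, Gna15 and Tnfsf11, of which Tnfsf11 was higher by 1.93 (1.45 to 2.60) in WT and 5.99 (2.50 to 18.8) in KO.

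Tnfrsf4 (OX40) and Tnfsf11 (RANKL), a receptor and a ligand of the tumour necrosis factor families, also set members apart from memory-like CD8 T cells. Tnfrsf4 stood at 212 CPM in WT members and 242 CPM in KO members, against 99.9 and 105 CPM in naive-like CD4 T cells and 15.8 and 7.73 CPM in memory-like CD8 T cells. Members therefore exceeded CD8 T cells by 13.4 (7.76 to 25.4) in WT and 31.3 (16.3 to 68.9) in KO. Tnfsf11 stood at 84.6 and 68.3 CPM in members and at 19.5 and 6.87 CPM in CD8 T cells. Gamma-delta-like T cells had more Tnfsf11 than members, 137.3 and 141.5 CPM. Foxp3-positive CD4 T cells had still more Tnfrsf4, 518 and 915 CPM.

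The 10 genes lowest in members against naive-like cells included the chemokine receptor Ccr7, at 182 against 427 CPM in WT and 119 against 315 CPM in KO. Also among them were Atp1b1, Pdlim4, Myo6, Ly6c1, Actn1, Klhdc2, Sh3bp5 and the chromatin organiser Satb1, which stood at 52.8 against 221 CPM in WT and 75.2 against 201 CPM in KO. For the type 1 and cytotoxic list, members exceeded naive-like cells by a median log2 ratio of 0.86 in WT and 0.69 in KO. The median was 0.75 and 0.61 for checkpoint receptors, 0.69 and 0.54 for S100, galectin and annexin genes, and 0.54 and 0.39 for homing and adhesion genes. Naive and recirculation genes, 3 of which the rule used, had medians of −0.36 and −0.58. All genes had medians of 0.12 and 0.08. Lists of activated and tissue-homing T cells were thus above the background of all genes in both libraries.

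**Figure D1:**
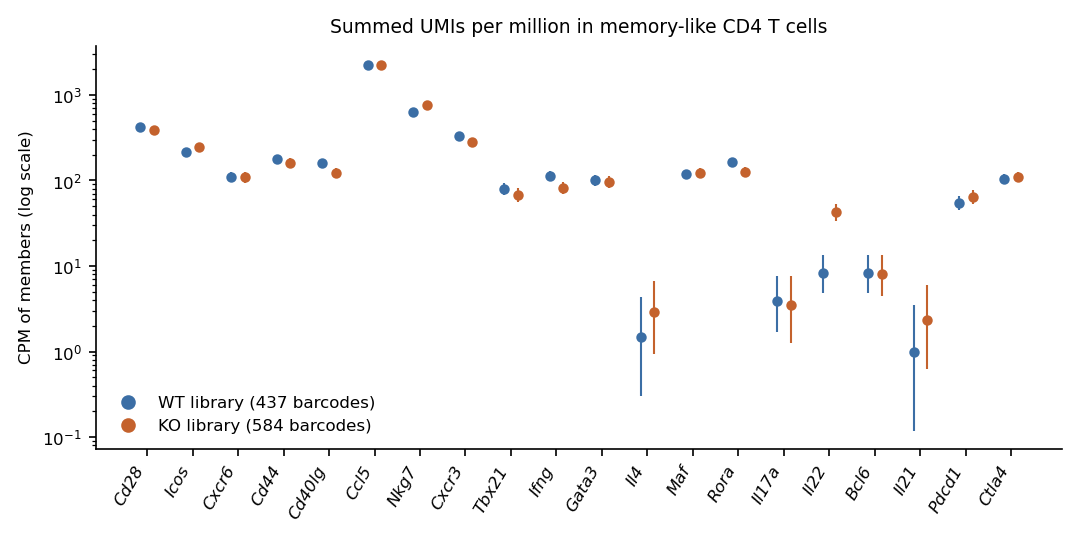
Level of marker and helper genes in memory-like CD4 T cells, in CPM on a log scale, for the WT library (blue) and the KO library (orange). Points are the summed level of 437 and 584 barcodes and bars are exact 95% Poisson intervals; Cd28, Icos, Cxcr6, Ccl5, Nkg7 and Gata3 lie close together in the 2 libraries, and Il22 is at 8.31 CPM in WT members and at 42.8 CPM in KO members.

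The type 1 genes Ccl5 and Nkg7 were found in a large share of members, and the type 1 list as a whole was close to equal in the 2 libraries. Ccl5, a chemokine of effector T cells, stood at 2248 and 2223 CPM, a ratio of 0.989 (0.948 to 1.03). At 1500 UMIs, Ccl5 was found in 42.0% of WT and 40.0% of KO members (46.5% and 41.6% at full depth), against 0.672% and 2.69% of B cells and 80.0% and 84.9% of memory-like CD8 T cells. Nkg7, a protein of cytotoxic granules, stood at 633 and 765 CPM, a ratio of 1.21 (1.12 to 1.31), and was found in 43.7% and 50.3% of members at 1500 UMIs (57.9% and 54.5% at full depth; B cells 0.246% and 1.59%). Tbx21 stood at 79.2 and 67.7 CPM, a ratio of 0.855 (0.668 to 1.09). Ifng stood at 113 and 82.2 CPM, a ratio of 0.728 (0.586 to 0.901), but the ratio was 1.18 when barcodes were reduced to 1500 UMIs before the rule was applied. The death ligand gene Fasl stood at 171 and 138 CPM, a ratio of 0.811 (0.685 to 0.959). Of the 22 listed type 1 genes 14 reached 20 CPM, with a median log2 ratio of −0.04 against −0.02 over all genes.

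Cytokines of type 2, type 17 and follicular helper cells were found in few members. Gata3, the type 2 transcription factor, stood at 100 CPM in WT members and 96.1 CPM in KO members, a ratio of 0.959 (0.777 to 1.18), and was found in 13.4% and 13.8% of members at 1500 UMIs (32.5% and 21.4% at full depth; B cells 0.0491% and 0.146%). The type 2 cytokines were almost absent: Il4 had 3 and 5 UMIs, Il13 had 1 and 0, and Il5 had none in either library, which by the limit of 3 counts allows a share of members with an Il5 UMI of up to 0.687% in WT and 0.514% in KO (exact upper bounds 0.841% and 0.630%) and sets no limit on cells that express it. Maf, a transcription factor of several helper subsets, stood at 118 and 123 CPM. Rora stood at 165 and 127 CPM, a ratio of 0.767 (0.644 to 0.912). Il17a had 8 UMIs in WT and 6 in KO. Bcl6 had 17 and 14 UMIs, Il21 had 2 and 4, and the follicle-homing receptor Cxcr5 had 17 and 21.

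Il22, a cytokine that acts on epithelial and other barrier cells, had 17 UMIs in WT and 74 in KO, 8.31 and 42.8 CPM, a ratio of 5.15 (3.01 to 9.32). These UMIs lay in 3 WT and 6 KO barcodes, with up to 14 and 28 UMIs in 1 barcode, so the interval over UMIs says little about cells. Tmem176a and Tmem176b, paired membrane proteins of type 17 and antigen-presenting cells, had ratios of 1.54 (1.26 to 1.89) and 1.66 (1.40 to 1.96). Without the members that held antigen-presenting-cell transcripts, Tmem176b stood at 40.4 and 79.4 CPM, a ratio of 1.96 (1.46 to 2.66), and Tmem176a at 28.6 and 48.7 CPM. Of the 11 listed type 17 genes 6 reached 20 CPM, 5 of them with a ratio above 1, against 2682 of all 5801 genes. Their median log2 ratio was 0.50, or 0.51 without those members and 0.21 with each member reduced to 1500 UMIs. With barcodes reduced before the rule the median was 0.47 over the genes that then reached 20 CPM and 0.72 over the same 6 genes. Tmem176b was also higher in KO B cells, at 61.3 against 30.2 CPM.

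Of the markers of other lymphocytes, those of NKT cells were found in few members. Zbtb16, the transcription factor of NKT cells, was found in 1.37% of WT and 1.03% of KO members at full depth, and Klrb1c (NK1.1) in 2.52% and 2.23%. Ikzf2 (Helios), which regulatory T cells share, stood at 66.5 and 61.3 CPM and was found in 9.47% and 7.30% of members at 1500 UMIs (20.4% and 13.7% at full depth; B cells 0 and 0.0890%). Its level was 2.15 (1.54 to 3.05) times that in naive-like CD4 T cells in WT and 6.72 (2.55 to 25.1) times in KO, and Foxp3-positive CD4 T cells stood at 214 and 305 CPM. Ighm, the immunoglobulin M heavy chain gene of B cells, was found in 16.4% and 20.3% of members at 1500 UMIs (37.3% and 29.8% at full depth), against 80.3% and 81.0% of B cells and 18.6% and 19.4% of naive-like CD4 T cells. The dividing-cell gene Mki67 was found in 0.693% and 1.83% of members at 1500 UMIs (3.20% and 2.40% at full depth; B cells 0.278% and 0.477%).

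Members differed among themselves, and those with Cxcr6 and those with Ccr7 had unlike levels of effector genes. The following ratios use members reduced to 1500 UMIs, without those holding antigen-presenting-cell transcripts, and compare members with a UMI of Cxcr6 (42 in WT, 65 in KO) or of Ccr7 (74 and 64) with the members lacking one. A member without a UMI may still express the gene, and the ratios are descriptions within a library. Ccr2, the receptor for monocyte chemoattractants, was at 444 CPM in WT members with a Cxcr6 UMI and 122 CPM in the others, a ratio of 3.63 (2.25 to 5.71), and in KO at 215 and 128 CPM, a ratio of 1.69 (0.988 to 2.77). S100a4 had ratios of 2.49 (1.81 to 3.38) and 1.65 (1.24 to 2.18), Nkg7 of 1.69 (1.28 to 2.21) and 1.5 (1.21 to 1.83), and Ccl5 of 1.48 (1.27 to 1.70) and 1.54 (1.37 to 1.73). Id2, a regulator of effector and resident lymphocytes, had ratios of 1.45 (1.01 to 2.03) and 1.71 (1.30 to 2.22). Klf2, which maintains the exit receptor S1pr1, had ratios of 0.804 (0.656 to 0.977) and 0.768 (0.646 to 0.908), and Ccr7 of 0.490 (0.193 to 1.04) and 0.235 (0.0474 to 0.712).

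Members with a Ccr7 UMI lay on the other side of 1 for Ccl5, Nkg7, S100a4, Ccr2, Id2 and Klf2 in both libraries. Ccl5 stood at 514 CPM in WT members with a Ccr7 UMI and 2888 CPM in the others, a ratio of 0.178 (0.134 to 0.232), and in KO at 1052 and 2776 CPM, a ratio of 0.379 (0.307 to 0.464). Nkg7 had ratios of 0.355 (0.234 to 0.518) and 0.665 (0.499 to 0.874), and S100a4 of 0.386 (0.228 to 0.616) and 0.229 (0.113 to 0.415). Ccr2 had ratios of 0.148 (0.0301 to 0.447) and 0.484 (0.189 to 1.04) and Id2 of 0.819 (0.578 to 1.14) and 0.673 (0.455 to 0.965), so the intervals held 1 for Ccr2 in KO and for Id2 in WT. Klf2 was at 1.35 (1.19 to 1.54) and 1.24 (1.07 to 1.43). Bhlhe40 had ratios of 0.288 (0.151 to 0.503) and 0.999 (0.640 to 1.51), and Tbx21 of 0.119 (0.00294 to 0.704) and 0.829 (0.289 to 1.95), and whether these ratios differ between the libraries was not tested. Tcf7, which encodes the memory factor TCF-1, had intervals that held 1 for either receptor, with ratios of 0.796 (0.520 to 1.17) and 1.0 (0.721 to 1.37) for Cxcr6 and of 1.11 (0.834 to 1.45) and 1.02 (0.734 to 1.40) for Ccr7.

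**Figure D2:**
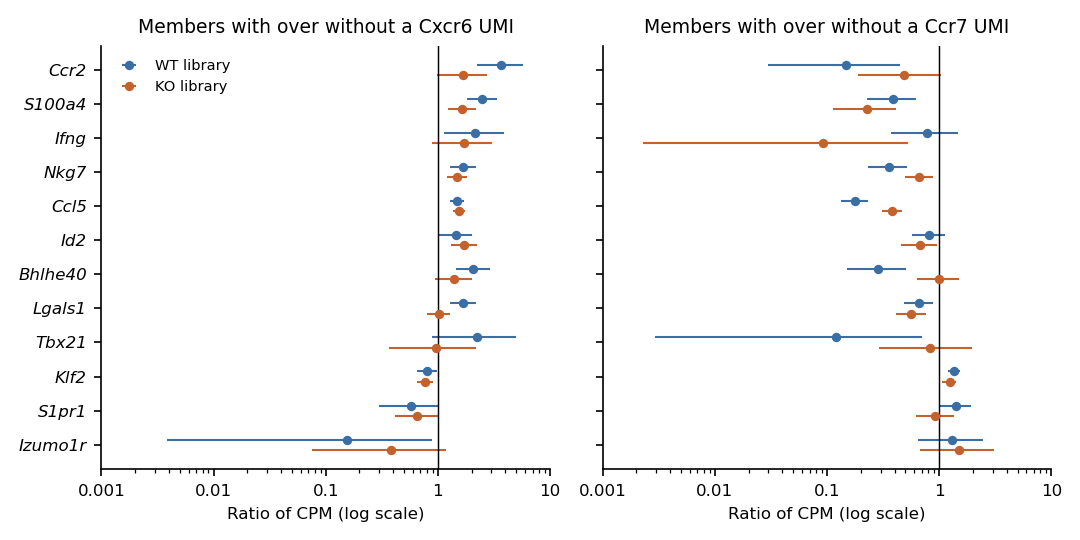
Ratio of CPM, on a log scale, of members with a UMI of Cxcr6 (left) or Ccr7 (right) over members without one, each member reduced to 1500 UMIs and those with antigen-presenting-cell transcripts left out. Points are the WT (blue) and KO (orange) libraries and bars are exact 95% intervals; Ccl5 and Nkg7 lie above 1 on the left and below 1 on the right in both libraries.

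The next comparison addressed what differed in members between the KO and WT libraries. Of 5801 genes at a mean of at least 20 CPM, 156 (2.69%) were at least 1.5-fold higher in KO members and 145 (2.5%) at least 1.5-fold lower, and the median log2 ratio was −0.02. The 12 genes with the highest lower bound of the ratio were Retnla, Pltp, Wfdc17, Cfp, Spi1, Alox5ap, Ccl9, Lgals3, Cst3, Ifitm2, Ecm1 and Mgl2, most of which are genes of macrophages and dendritic cells. Of these, Retnla, Pltp, Wfdc17, Cfp, Spi1, Alox5ap, Ccl9 and Mgl2 had UMIs in at most 19 WT and 37 KO barcodes, whereas Ifitm2 was found in 37 and 54, Ecm1 in 70 and 96, Lgals3 in 80 and 121 and Cst3 in 203 and 209. Retnla, a secreted product of alternatively activated macrophages, had 3 UMIs in WT and 201 in KO, of which 199 lay in 1 barcode. Pltp stood at 62.6 and 175 CPM, from 19 and 33 barcodes, and without the members holding antigen-presenting-cell transcripts at 5.93 and 6.67 CPM. Spi1, Mgl2 and Ifitm2 had ratios of 2.29, 2.01 and 1.84 in all members. Without the members holding antigen-presenting-cell transcripts the ratios were 0.619 (0.0560 to 4.32), 0.619 (0.0105 to 11.9) and 0.975 (0.72 to 1.33). Spi1 was then left with 4 WT and 2 KO UMIs and Mgl2 with 1.08 and 0.667 CPM, so their ratios give no direction.

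Without those members, 422 WT and 553 KO barcodes remained. Of 5759 genes, 132 (2.29%) were then at least 1.5-fold higher and 167 (2.9%) at least 1.5-fold lower in KO. The 12 highest genes were Ecm1, Tmem176b, Pim2, Fam169b, Wnk1, Snrnp40, Stmn1, Trim12a, Tspan13, Mrpl30, Plac8 and Ugcg. Only Ecm1 stood in both sets of 12. Ecm1, a secreted extracellular matrix glycoprotein, stood at 168 CPM in WT members and 305 CPM in KO members, a ratio of 1.82 (1.57 to 2.11), from 66 and 88 barcodes. In naive-like CD4 T cells it stood at 674 and 626 CPM, a ratio of 0.930 (0.801 to 1.08), and it was lower in KO gamma-delta-like T cells, 160 and 44.8 CPM. The ratio in members exceeded that in naive-like cells by 1.96 (1.60 to 2.40). Pim2, a survival kinase of lymphocytes, stood at 59.3 and 107 CPM, a ratio of 1.81 (1.41 to 2.33), and Plac8 at 58.2 and 92.1 CPM. Stmn1, a microtubule regulator of dividing cells, stood at 48.0 and 80.1 CPM, in 36 and 49 barcodes.

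The genes lower in KO members came from many barcodes. By the same ranking the 12 lowest included Irf2bp2, Irf1, Sidt1, Gpr132, Sfr1, Jun, Hspa5, Ehd3, Nr4a1, Zc3h12a and Tuba1c. Without the members holding antigen-presenting-cell transcripts these 11 remained among the 12 lowest, joined by Prelid2 at 70.1 and 30.7 CPM. Each of these 11 had UMIs in at least 129 WT and 75 KO members. Several were as high in WT B cells, where Irf2bp2 stood at 353, Nr4a1 at 515 and Tuba1c at 120 CPM, against 258, 424 and 90.9 CPM in WT members. The promoters of 4 of the genes are shown because these genes are textbook readouts of separate signals: Nr4a1 and Jun of antigen receptor and growth factor signals, Hspa5 of stress in the endoplasmic reticulum, and Irf1 of interferon. Each is the 250 bases before the annotated start in RefSeq, build GRCm38.p6, 5′ to 3′ on the gene's strand. Capitals mark matches, on either strand, to TGACG (the core of a cyclic AMP response element) in Nr4a1, TGACATCA (an AP-1-like octamer) in Jun, CCAAT and CCACG with 9 bases between them (the endoplasmic reticulum stress response element) in Hspa5 and TTCNNNGAA (a STAT-binding gamma-activated site) in Irf1.
Nr4a1 (chr15:101266596-101266845, plus strand): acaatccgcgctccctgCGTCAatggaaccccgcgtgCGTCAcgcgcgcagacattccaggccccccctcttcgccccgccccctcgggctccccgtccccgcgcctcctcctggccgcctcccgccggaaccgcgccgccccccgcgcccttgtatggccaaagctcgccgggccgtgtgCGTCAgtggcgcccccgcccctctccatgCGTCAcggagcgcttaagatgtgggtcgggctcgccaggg
Jun (chr4:95052223-95052472, minus strand): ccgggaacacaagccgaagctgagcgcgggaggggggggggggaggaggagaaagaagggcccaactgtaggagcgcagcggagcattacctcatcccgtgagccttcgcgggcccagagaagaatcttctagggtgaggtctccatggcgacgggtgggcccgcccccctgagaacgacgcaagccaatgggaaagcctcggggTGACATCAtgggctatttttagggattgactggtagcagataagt
Hspa5 (chr2:34771840-34772089, plus strand): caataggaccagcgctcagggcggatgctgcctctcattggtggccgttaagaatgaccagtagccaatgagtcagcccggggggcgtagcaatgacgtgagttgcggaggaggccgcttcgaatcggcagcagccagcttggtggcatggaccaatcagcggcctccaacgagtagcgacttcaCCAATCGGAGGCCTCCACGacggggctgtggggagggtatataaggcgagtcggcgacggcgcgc
Irf1 (chr11:53769764-53770013, plus strand): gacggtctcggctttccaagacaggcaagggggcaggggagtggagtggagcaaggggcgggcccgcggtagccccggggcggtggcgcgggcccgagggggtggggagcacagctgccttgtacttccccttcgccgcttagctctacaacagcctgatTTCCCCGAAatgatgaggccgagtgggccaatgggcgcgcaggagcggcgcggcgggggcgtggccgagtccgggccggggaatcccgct
Nr4a1 holds 4 matches and each other promoter 1. Of 32851 promoters of the same length, 17.8% hold TGACG, 2.93% TGACATCA, 0.113% the stress response element and 7.02% TTCNNNGAA. For Irf1, 2 starts are listed, and the one with the match is shown. A match describes letters in the window and not a bound site.

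Irf2bp2, a transcriptional co-repressor that binds interferon regulatory factor 2, had the lowest ratio. It stood at 258 CPM in WT members and 88.0 CPM in KO members, a ratio of 0.341 (0.283 to 0.409), from 266 and 126 barcodes. Sidt1, a membrane protein of the SID1 family, stood at 180 and 97.2 CPM, a ratio of 0.539 (0.446 to 0.649). Gpr132, a G-protein-coupled receptor of lymphocytes and macrophages, stood at 159 and 86.2 CPM, a ratio of 0.543 (0.444 to 0.661). Zc3h12a (Regnase-1), a ribonuclease that degrades messenger RNAs of cytokines and of Icos, stood at 98.7 and 55.0 CPM, a ratio of 0.557 (0.432 to 0.714). Sfr1, a partner in homologous recombination, was at 0.575 (0.487 to 0.677), and Ehd3, an endosomal recycling protein, at 0.584 (0.487 to 0.698).

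Several of these genes were lower in KO cells of other types as well, again without barcodes holding antigen-presenting-cell transcripts among the T cells. Irf2bp2 had a ratio of 0.333 (0.271 to 0.407) in members, 0.317 (0.193 to 0.495) in naive-like CD4 T cells, 0.497 (0.353 to 0.694) in memory-like CD8 T cells, 0.297 (0.199 to 0.437) in gamma-delta-like T cells and 0.345 (0.336 to 0.355) in B cells. Hspa5 lay between 0.600 in naive-like CD4 T cells and 0.742 in B cells, with 0.624 (0.555 to 0.700) in members. Both genes were thus lower in KO in every population examined. Irf1 was at 0.541 (0.432 to 0.674) in members, 0.478 in naive-like CD4 T cells and 0.403 in gamma-delta-like T cells, but at 1.02 (0.764 to 1.36) in memory-like CD8 T cells, and the ratio in members was 0.532 (0.375 to 0.757) times that in CD8 T cells. Sidt1 was at 0.564 (0.466 to 0.680) in members and at 1.97 (1.70 to 2.29) in B cells, where its level was 4.90 and 9.66 CPM. Gpr132 was at 0.558 (0.451 to 0.687) in members, 0.598 (0.431 to 0.826) in memory-like CD8 T cells, 1.09 (0.727 to 1.65) in gamma-delta-like T cells and 0.959 (0.904 to 1.02) in B cells.

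**Figure D3:**
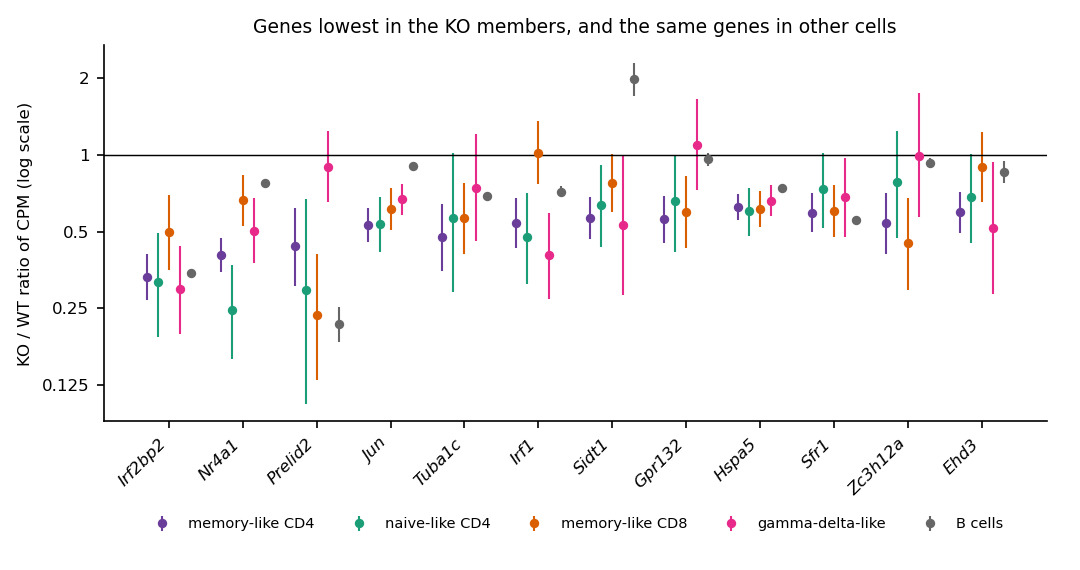
KO to WT ratio of CPM, on a log scale, of the 12 genes lowest in KO members, in members and in 4 other cell populations of the same libraries; barcodes with antigen-presenting-cell transcripts are left out of the T-cell populations. Points are ratios of summed counts and bars are exact 95% intervals; Irf2bp2 and Hspa5 lie below 1 in all 5 populations, whereas Irf1 in memory-like CD8 T cells and Sidt1 in B cells do not.

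Immediate-early genes, which are transcribed within minutes of antigen receptor or stress signals, were mostly lower in KO members. Of 26 listed genes 23 reached 20 CPM. Among all 5801 genes 53.8% had a ratio below 1 and 2.5% were at least 1.5-fold lower. In all members 17 of the 23 had a ratio below 1 and their median log2 ratio was −0.21, against −0.02 over all genes, with 5 at least 1.5-fold lower and 1 at least 1.5-fold higher. Without the members holding antigen-presenting-cell transcripts 20 of 23 had a ratio below 1, the median was −0.30, and 5 were at least 1.5-fold lower and 0 higher, against 53.3% of all genes below 1 and 2.9% at least 1.5-fold lower. Nr4a1 (Nur77), an orphan nuclear receptor that reports antigen receptor signalling, stood at 424 CPM in WT members and 267 CPM in KO members, a ratio of 0.631 (0.562 to 0.707), and at 366 and 148 CPM without those members, a ratio of 0.405 (0.346 to 0.472). At 1500 UMIs a Nr4a1 UMI was found in 37.4% of WT and 18.9% of KO members (61.3% and 29.3% at full depth), against 43.1% and 35.5% of B cells. Its relatives Nr4a2 and Nr4a3 were at 0.621 (0.452 to 0.847) and 0.571 (0.422 to 0.767). Jun, a subunit of AP-1, stood at 329 and 197 CPM, a ratio of 0.598 (0.523 to 0.682).

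Immediate-early genes with the most UMIs differed less, and several hardly differed. Jund (2035 and 2034 CPM), Klf6 (1290 and 1242 CPM) and Zfp36 (503 and 509 CPM) had nearly the same level in both groups of members. Nfkbia was somewhat lower in KO members (976 and 873 CPM). Junb stood at 5110 and 4162 CPM, a ratio of 0.815 (0.790 to 0.839), Tnfaip3 (A20), an inhibitor of NF-kappa-B signalling, at 945 and 733 CPM, a ratio of 0.775 (0.721 to 0.832), and the phosphatase gene Dusp5 at 813 and 569 CPM, a ratio of 0.699 (0.646 to 0.757). Ppp1r15a (GADD34), which restores translation after stress, was at 0.720 (0.653 to 0.793). Fos, at 410 and 464 CPM, and Dusp1, at 579 and 677 CPM, had ratios of 1.13 (1.03 to 1.25) and 1.17 (1.08 to 1.27), which became 1.05 (0.937 to 1.17) and 0.959 (0.873 to 1.05) without the members holding antigen-presenting-cell transcripts. Egr1 showed the greatest dependence: 144 and 219 UMIs in all members, a ratio of 1.80 (1.45 to 2.24), and 0.871 (0.560 to 1.34) without them. Dusp2 stayed higher, at 1.30 (1.08 to 1.57) and 1.23 (1.01 to 1.5), but was at 0.97 when barcodes were reduced to 1500 UMIs before the rule was applied.

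The same list had medians of −0.28 in naive-like CD4 T cells, −0.38 in memory-like CD8 T cells, −0.43 in gamma-delta-like T cells and 0.00 in B cells. Nr4a1 was at 0.248 (0.158 to 0.371) in naive-like CD4, 0.662 (0.525 to 0.833) in memory-like CD8, 0.503 (0.375 to 0.673) in gamma-delta-like T cells and 0.774 (0.760 to 0.787) in B cells. Its ratio in members was 0.523 (0.449 to 0.609) times that in B cells and 0.611 (0.466 to 0.801) times that in CD8 T cells, and 1.64 (1.06 to 2.52) times that in naive-like CD4 T cells. Nr4a1 was therefore lower in KO in B cells and in each of these T-cell populations. By counting error of UMIs alone, the ratio in members differed from those in B cells, CD8 T cells and naive-like CD4 T cells. Of the Nr4a1 UMIs of all members, 21.6% in WT and 33.5% in KO lay in 10 barcodes. The intervals do not cover this spread between cells.

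**Figure D4:**
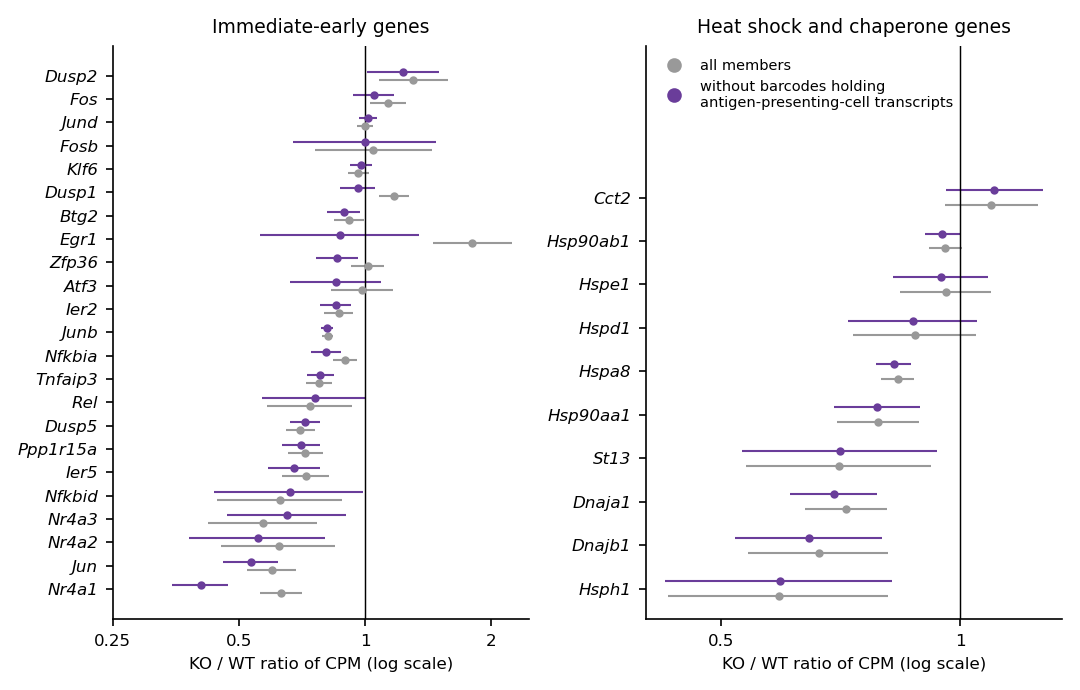
KO to WT ratio of CPM in members, on a log scale, for immediate-early genes (left) and heat shock and chaperone genes (right) at a mean of at least 20 CPM. Grey points are all members, purple points leave out members with antigen-presenting-cell transcripts, and bars are exact 95% intervals; Egr1 moves from 1.80 to 0.871 and Nr4a1 from 0.631 to 0.405 between the 2 settings, and the chaperone genes move little.

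Chaperone genes were lower in KO members too. Of 12 listed heat shock and chaperone genes 10 reached 20 CPM, 9 had a ratio below 1 (53.8% of all genes) and 2 were at least 1.5-fold lower (2.5% of all genes), with a median log2 ratio of −0.30, or −0.31 without the members holding antigen-presenting-cell transcripts. Hspa5 (BiP), the main chaperone of the endoplasmic reticulum and not on that list, stood at 539 and 339 CPM, a ratio of 0.628 (0.567 to 0.695). Among the listed genes, the co-chaperones Dnajb1 and Dnaja1 were at 0.664 (0.541 to 0.812) and 0.718 (0.637 to 0.809), Hsph1 at 0.592 (0.428 to 0.811), and the abundant Hspa8 at 1960 and 1634 CPM, a ratio of 0.834 (0.794 to 0.875). Cct2, a subunit of the cytosolic chaperonin, was the exception, with a ratio above 1. Medians of the same list elsewhere were −0.11 in naive-like CD4 T cells, −0.28 in memory-like CD8 T cells, −0.34 in gamma-delta-like T cells and −0.17 in B cells.

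Interferon-induced genes were more mixed. Of 30 listed genes 24 reached 20 CPM, 18 of them with a ratio below 1 (53.8% of all genes) and 4 at least 1.5-fold lower (2.5% of all genes), with a median log2 ratio of −0.13. When barcodes were reduced to 1500 UMIs before the rule was applied the median was −0.37. Irf1, the transcription factor of the interferon-gamma response, stood at 146 and 75.8 CPM, a ratio of 0.519 (0.419 to 0.639). Isg15, a ubiquitin-like modifier, stood at 38.1 and 21.4 CPM, a ratio of 0.562 (0.369 to 0.841), and Rtp4 at 32.3 and 15.1 CPM, a ratio of 0.466 (0.284 to 0.744). Irf7, a transcription factor of the type I interferon response, was at 0.693 (0.538 to 0.889). Socs1, a feedback inhibitor of the same pathway, stood at 290 and 332 CPM, a ratio of 1.15 (1.02 to 1.29).

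Costimulation and antigen receptor signalling genes that reached 20 CPM differed by less than 1.5-fold. They were 19 of 20 listed genes, of which 14 had a ratio below 1 (53.8% of all genes). The interval lay below 1 for 6 genes and above 1 for 1 gene, against 481 and 385 of all 5801 genes. Without the members holding antigen-presenting-cell transcripts, 12 of 19 had a ratio below 1 (53.3% of all genes). The interval then lay below 1 for 4 genes and above 1 for 3 genes, against 420 and 338 of all 5759 genes. In all members the median log2 ratio was −0.14, against −0.02 over all genes. It was −0.08 without those members and −0.012 when barcodes were reduced before the rule was applied. Cd28 and Icos were at 0.909 (0.820 to 1.01) and 1.13 (0.985 to 1.29). Cd40lg, through which CD4 T cells activate B cells and macrophages, stood at 159 and 123 CPM, a ratio of 0.770 (0.645 to 0.918), and was found in 21.2% and 16.6% of members at 1500 UMIs (47.6% and 28.1% at full depth; B cells 0 and 0.0647%). The phospholipase gene Plcg1 was at 0.705 (0.522 to 0.945).

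Checkpoint receptors did not move together. Of 14 listed genes 7 reached 20 CPM, 4 with a ratio above 1 and 3 below, against 2682 and 3119 of all 5801 genes. Their median log2 ratio was 0.07. Pdcd1 (PD-1) stood at 54.7 and 64.2 CPM, a ratio of 1.17 (0.894 to 1.54) that was 0.743 when barcodes were reduced before the rule was applied, and Ctla4 at 105 and 111 CPM. Slamf6, a receptor of memory and stem-like T cells, stood at 157 and 195 CPM, a ratio of 1.24 (1.06 to 1.45). Izumo1r (folate receptor 4) stood at 86.5 and 66.0 CPM, a ratio of 0.763 (0.597 to 0.970).

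Homing genes had a median log2 ratio of −0.12 over 14 of 21 listed genes, and 1 was at least 1.5-fold higher (2.69% of all genes). Cxcr6 was at 0.989 (0.811 to 1.21), Cxcr3 at 0.847 (0.752 to 0.954), and Selplg, the ligand of P-selectin, at 1.15 (1.07 to 1.24). Ccr7, of the naive and recirculation list, stood at 182 and 119 CPM, a ratio of 0.656 (0.550 to 0.779). Among the S100, galectin and annexin genes, 14 of 14 listed genes had a median of −0.02, with S100a4 at 0.999 (0.906 to 1.10), Crip1 at 0.825 (0.791 to 0.859) and Anxa6 at 0.708 (0.629 to 0.796). Genes of PI3K and FOXO signalling had a median of −0.07 over 16 of 21, with Foxo1, a transcription factor of quiescent T cells, at 0.724 (0.602 to 0.869). Glycolysis genes had a median of −0.08 over 13 of 16, with Gapdh at 0.719 (0.668 to 0.773), and survival genes of 0.01 over 10 of 10, with Bcl2 at 0.985 (0.894 to 1.08). Mitochondrially encoded genes had a median of 0.13 and ribosomal protein genes of −0.01.

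T-cell receptor V segments, which the rule did not use, were counted in most members. A Trbv UMI was found in 94.3% (91.7 to 96.3) of WT and 85.8% (82.7 to 88.5) of KO members at full depth, against 0.528% and 1.08% of B cells, and a Trav UMI in 72.8% and 57.9%, against 0.224% and 0.409%. UMIs of 1 Trbv gene alone were found in 289 WT and 391 KO members. Gamma V segments occurred in 5 WT and 10 KO members, and Trdv segments in 14 and 8. Among the 412 WT and 501 KO members with a Trbv UMI, Trbv13-2 was the most frequent, in 21.4% (17.5 to 25.6) and 17.6% (14.3 to 21.2), and by the share summed over both libraries Trbv19, in 11.2% and 14.2%, and Trbv3, in 9.71% and 12.2%, came next. In WT, Trbv12-2 at 10.9% and Trbv5 at 10.4% stood above Trbv3. Trbv5 occurred in 10.4% (7.66 to 13.8) of WT and 4.59% (2.93 to 6.81) of KO members, and among the 16 most used segments it was the only one whose intervals did not overlap. These segment shares are at full depth, which was greater in WT members. UMIs of 2 Trbv genes were found in 104 WT (23.8%) and 90 KO (15.4%) members. The part of depth and of such members in the Trbv5 difference was not tested. Near-identical segments may have been confused in counting.

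The repertoire was spread over many segment pairs. In 129 WT and 171 KO members exactly 1 Trav and 1 Trbv gene were counted. These members held 116 and 144 distinct pairs, of which 104 and 122 were seen once. The largest pair, Trav5-4 with Trbv31 in WT and Trav13-1 with Trbv3 in KO, held 3 and 4 members. No segment pair therefore took up more than 2.33% of these WT or 2.34% of these KO members, and a pair of segments is not a clone, since the junction sequences are not in the expression files.

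**Figure D5:**
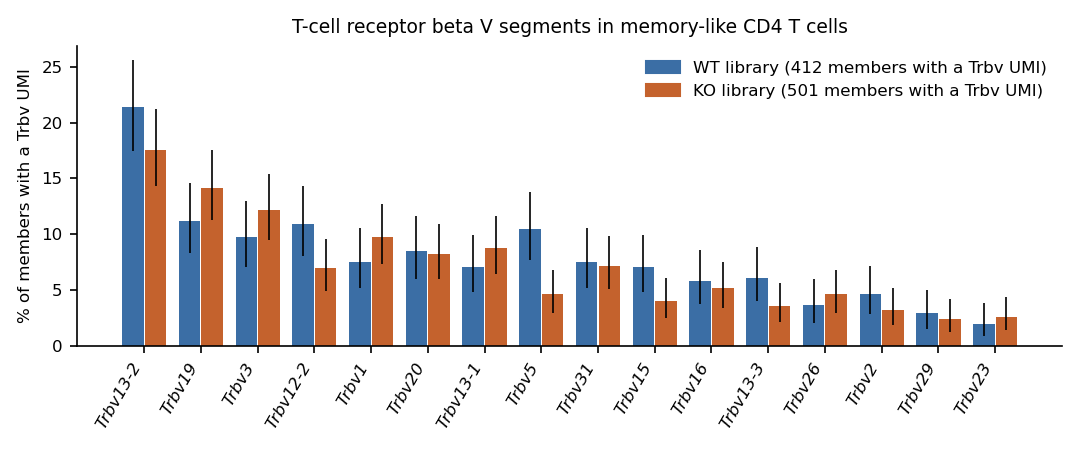
Share of members with a UMI of each beta V segment, in percent of the 412 WT (blue) and 501 KO (orange) members with any Trbv UMI, for the 16 segments with the highest summed share. Bars start at 0 and lines are exact 95% Clopper-Pearson intervals; Trbv13-2 is the tallest in both libraries, and Trbv5 is 10.4% in WT and 4.59% in KO.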

How the data were processed

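Single-cell expression was measured in 1 WT and 1 KO library, with a BCR library each; which gene the KO lacks, and the values of some other genes, are not reported here. Expression values are the authors' deposited UMI counts, without normalisation, for 32285 genes. The software was Cell Ranger 6.1.2 per the file headers but Cell Ranger 6.0.1, with Seurat 4.3.0 and build mm39, per the submitters' processing notes, so version and annotation are uncertain. The labels name a 3' kit, yet T-cell receptor V segments were abundant, and it is uncertain which transcript end was sequenced. The deposited BCR files, per the file headers, hold counts of reads and UMIs per contig, and only their barcodes were used.

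Members and gene lists were chosen with earlier results of these data known. Counts were added up within each library and given as CPM with Python 3.11.15, numpy 2.4.6, scipy 1.17.1 and pandas 2.3.3. Single levels carry Poisson, ratios conditional binomial and shares Clopper-Pearson intervals. With 1 library per genotype no test was made. Named genes were, at a mean CPM of at least 50 and outside other-lineage lists, receptor segments, sex-linked, mitochondrial, ribosomal, haemoglobin and predicted genes, the 12 with the interval bound farthest from 1 each way, up to 4 per list, helper transcription factors and cytokines, and 10 each way against naive-like cells. Other genes were named after their values were seen. B cells for reference had at least 5 UMIs of B-cell genes. Members with antigen-presenting-cell transcripts were defined after the data were seen. Doublets were not removed from the main values; the highest Scrublet scores (scanpy 1.11.5) marked 765 WT and 3971 KO barcodes and were left out as an alternative. Other alternatives changed the rule's limits, the thinning, the totals and the level filter. The scripts were tested on simulated data.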

Additional observations from a re-analysis of the deposited data

How the results depend on the processing

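No paired analysis was possible because each genotype has 1 library and the shared replicate number pairs nothing. The KO to WT ratio of the member share, 0.600, was 0.466 with no B-cell UMI and 0.679 with no naive-gene UMI allowed. It was 0.694 with barcodes reduced to 1000 UMIs before the rule. The counts of genes at least 1.5-fold higher (156) and lower (145) in KO differed by setting: 562 and 623 with barcodes reduced to 1500 UMIs before the rule, 355 and 477 with members reduced, 235 and 219 with other totals (no immunoglobulin, receptor segment, mitochondrial or ribosomal UMIs), 40 and 36 at 50 CPM, 644 and 550 at 5 CPM, and 252 lower with no naive-gene UMI. List medians moved with reduction before the rule for costimulation (−0.012), heat shock (−0.41) and interferon (−0.37), with members reduced for costimulation (−0.035) and type 17 (0.21), with no B-cell UMI for interferon (−0.24), and for type 17 without NK-receptor members (0.61) and at 50 CPM (0.34). The type 2 median turned to −0.061 at 5 CPM. Against naive-like cells with 3 or more naive-gene UMIs, 787 genes were higher and 201 lower in WT members and 496 lower in KO members. With barcodes reduced before the rule, ratios whose interval excluded 1 crossed it for Bhlhe40 (1.005), Ccr2 (0.960), Cst3 (0.887), Dusp2 (0.97), Egr1 (0.876), Fcer1g (0.361), Ifitm2 (0.818), Ifng (1.18), Itgb7 (1.02), Retnla (0.876), Satb1 (0.940), Tigit (1.03), Txnip (0.989) and Tyrobp (0.876). Without members holding antigen-presenting-cell transcripts they did so for Cd209a (0), Dusp1 (0.959), Egr1 (0.871), Ifitm2 (0.975), Mgl2 (0.619), Retnla (0.413) and Spi1 (0.619). Cd209a helped to define the members left out, so its fall was built in. The interval of each of the others held 1 in that setting, where Retnla had 3 WT and 1 KO UMIs and Spi1 had 4 and 2. The causes of the other crossings were not tested. Of 1735 values of 145 named genes, these 21 crossed 1 from an interval that excluded it, 174 others left the reported interval and 1540 stayed within it. Whatever the interval, 82 values lay on the other side of 1. Depth limits the rare cytokines and every share of barcodes with a UMI.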
